A study of Mus musculus with 6 samples.

Results

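Genes of the muscle sarcomere and of myogenic differentiation were measured in macrophages sorted from mouse calf muscle after an interruption of the leg's blood supply. The set holds 40 genes, fixed by symbol, of 55327 rows in the count table, and all 40 symbols were found. It holds 5 embryonic or immature isoforms, 4 myogenic factors, 12 genes of adult fast fibres, 7 genes of adult slow fibres and 12 genes shared by fibre types. The genes were chosen by name, with earlier results of these data known.

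The sarcomere is the contractile unit of a muscle fibre, in which thick filaments of myosin slide along thin filaments of actin, tropomyosin and troponin. When a muscle is injured, satellite cells, its resident stem cells, divide and fuse into new fibres under transcription factors of the MyoD family. New fibres first make embryonic and perinatal isoforms of myosin, actin and troponin, and replace them with adult fast or slow isoforms as they mature. Macrophages clear debris from the injured muscle and are not known to build sarcomeres.

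The series asks how endothelial cells act on muscle regeneration, and this comparison sets macrophages of Pfkfb3 knockout mice (KO, 3 libraries) against those of wild-type mice (WT, 3 libraries). Pfkfb3 encodes an enzyme that promotes glycolysis. Mice of both groups were of the strain labelled 129S1/Sv * 129X1/SvJ * C57BL/6 * CBA, received 1 mg tamoxifen a day for 5 days with at least 7 days without it before the experiment, and were sampled 3 days after hindlimb ischemia. The design text names endothelial cells beside the gene, the genotype label names no cell type, and neither names the Cre driver or says whether libraries came from separate animals, so the p-values reflect how far these libraries differ from one another, which may in part be technical. Each library came from 7000 to 50000 sorted cells and was made with a kit that amplifies cDNA from little RNA.

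Library totals were 18853712 to 29060584 counts. Protein-coding genes took 16995733 to 22751784 counts in WT and 9176529 to 12422641 in KO, while the 6 most abundant small RNA rows took 15.9% to 20.7% and 36.8% to 51.1%. Levels are given as CPM, counts scaled per library, with the TMM-scaled library size as the base, on which a single count was worth 0.0274 to 0.0388 CPM in WT and 0.0533 to 0.0713 CPM in KO. Pfkfb3 itself was at 70.9, 101 and 82.4 CPM in WT and 55.5, 59.3 and 160 CPM in KO, with overlapping groups; since no label says in which cells the gene was deleted, this does not check the genotype. The macrophage label fitted its markers, with Adgre1 (F4/80) at a mean of 489 ± 13.1 CPM over the 3 WT libraries against 707 ± 85.9 CPM over the 3 KO libraries (± SD). KO replicates 1 and 2 stood apart from the other libraries in Xist, the RNA of the silenced X chromosome, at 154 and 171 CPM against 0.465 CPM or less in all others. They also stood apart in Ddx3y, a gene of the Y chromosome, at 0.533 and 0 CPM against 60.5 CPM or more. The labels do not give the sex of the mice. This split falls within the KO group, so the comparison of KO with WT carries it. Results are therefore also given for KO replicate 3 alone against the WT libraries, a comparison that assumes that this library varies like the others.

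Many sarcomere genes were higher in the macrophage libraries of KO mice. The 4 embryonic isoforms Myh8, Tnnt2, Actc1 and Myh3 had the largest fold changes of the set. Of the 40 members, 24 rose in KO, none fell, 8 were tested without a call and 8 had too few counts to be tested. Of all 14987 tested genes 4.39% were called higher and 2.25% lower, 6.64% in all (edgeR quasi-likelihood test, Benjamini-Hochberg adjusted p under 0.05). The summed level of the 40 genes was 57.3, 49.3 and 43.7 CPM in the WT libraries, in the order of their replicate numbers, against 205, 227 and 288 CPM in KO. This was a ratio of 4.79 between the group means, with no overlap between groups. For comparison, the 10 macrophage markers summed to 6430 to 8963 CPM in WT and 9178 to 9576 CPM in KO, also without overlap.

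The count filter asked for about 0.476 CPM, on the unscaled library size, in at least 3 libraries. Among the 32 tested members, 15 reached this in all 3 WT libraries, and of these 12 rose, the exceptions being Myod1, Tnnt1 and Ryr1. The other 17 needed counts from KO libraries to be tested, so that their 12 calls partly follow from the filter. With no filter, 27 of 40 members were called higher and none lower, against 3.18% of 32474 rows called higher. In that fit 38 of 40 members had a positive log2 fold change, as had 46.7% of the 32474 rows. Every KO library lay above every WT library in 31 of the 40 members and below in 1, Myl3, against 16.8% and 14.7% of all tested genes. The sets are unlike, since the 40 include 8 members that were not tested. Among those, Myf5, Tnnc2, Mybpc2 and Mb lay above WT and Myl3 below. Mybpc2 did so on the CPM scale with 10, 5 and 5 counts in KO against 8, 10 and 7 in WT. Without KO replicates 1 and 2, 14 members were called higher.

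**Figure D1:**
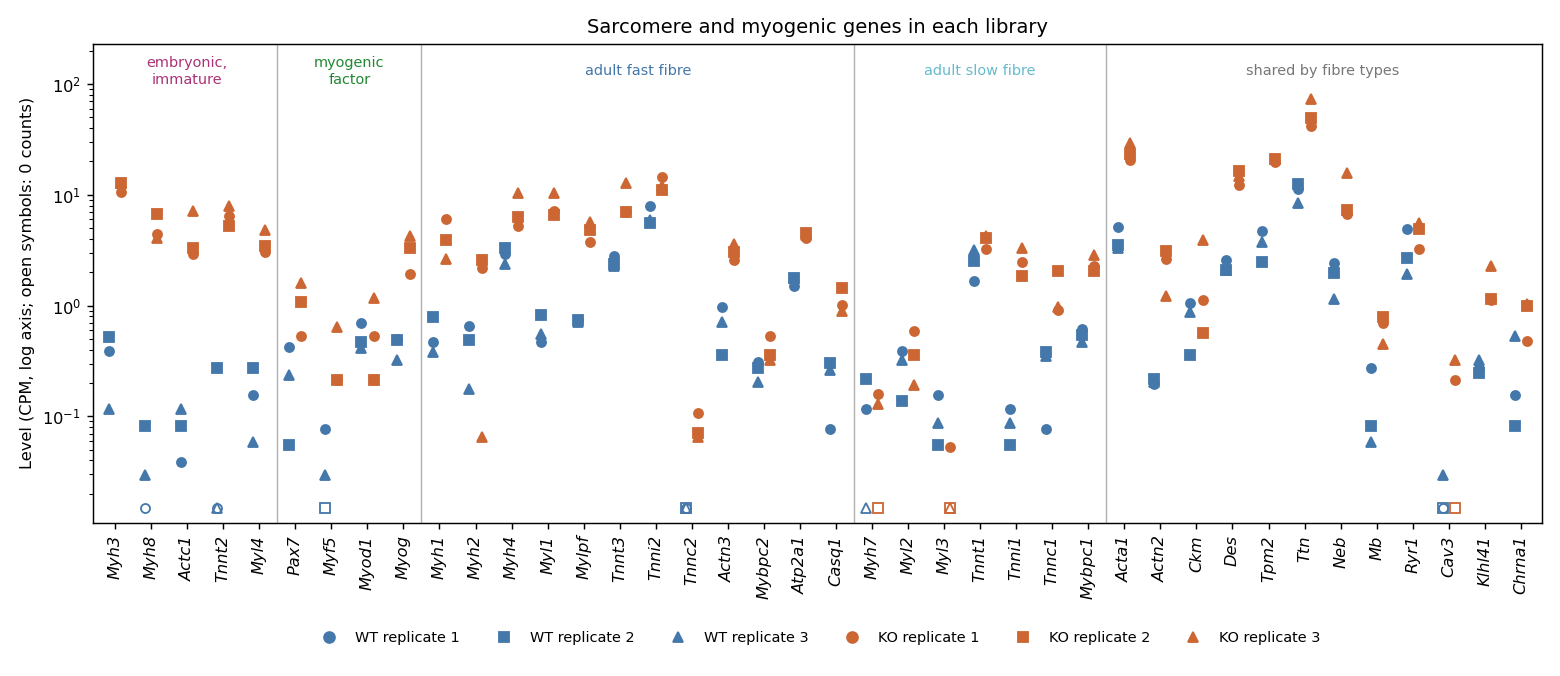
Level of each of the 40 genes in each library, in CPM on a log axis, with WT libraries in blue and KO libraries in orange; symbols mark the replicate, and open symbols at the bottom edge stand for 0 counts. The 5 embryonic genes at the left lie at 0.521 CPM or less in WT and at 2.93 CPM or more in KO, while 8 genes overlap between groups, Myod1, Myh2, Ckm and Ryr1 among them.

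The embryonic and immature isoforms were barely detected in WT libraries and all 5 rose in KO. Of these, Myh3 alone reached the count cutoff in any WT library, so the other 4 were tested on the strength of their KO counts. The summed level of the 5 was 0.582, 1.23 and 0.323 CPM in WT and 27.3, 31.5 and 36.7 CPM in KO. The ratio of 44.7 was the highest of the 5 classes, and was 35.1 without WT replicate 3 and 70.4 without WT replicate 2. The low WT counts make these folds imprecise, and each is given with an interval for counting error. The intervals pool the 3 libraries of a group. They leave out the spread between libraries, such as the 0, 10 and 0 WT counts of Tnnt2, and so understate the uncertainty.

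Myh3 encodes embryonic myosin heavy chain, a standard mark of newly formed fibres (ENSMUSG00000020908, chromosome 11, 67078300 to 67102291, forward strand, GRCm38). Its level was 0.388, 0.521 and 0.117 CPM in WT and 10.6, 12.8 and 12.7 CPM in KO. The KO libraries lay close together and far above the WT libraries. The log2 fold change was 5.11 (SE 0.41, edgeR adjusted p = 0.00085), and 33 pooled counts in WT against 574 in KO gave a ratio of 34.7 with an exact 95% interval of 24.4 to 50.9. In KO replicate 3 alone the log2 fold change was 5.14 (edgeR adjusted p = 0.028).

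Myh8 encodes perinatal myosin heavy chain, which follows the embryonic form (chromosome 11, 67277124 to 67308634). It had 0, 3 and 1 counts in WT and 83, 95 and 63 counts in KO, or 0, 0.0822 and 0.0293 CPM against 4.42, 6.78 and 4.06 CPM. The ratio of pooled levels was 120, with an interval of 46.3 to 445 (log2 fold change 6.79, SE 0.60, edgeR adjusted p = 0.0012). Without WT replicate 2, which held 3 of the 4 WT counts, the log2 fold change was 7.83, and without WT replicate 1 it was 6.36. The rank of Myh8, 2 among all tested genes by fitted log2 fold change, partly follows from the filter, which it passed through KO counts. Its transcripts share 12.1% of their 50-base stretches with other genes, most often with Myh2, so a part of its reads could be assigned either way.

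Actc1 encodes cardiac actin, which is also the actin of fetal skeletal muscle (chromosome 2, 114047282 to 114053548, reverse strand). It was at 0.0388, 0.0822 and 0.117 CPM in WT and at 2.93, 3.28 and 7.16 CPM in KO, with KO replicate 3 the highest. The log2 fold change was 5.67 (SE 0.58, edgeR adjusted p = 0.0019), and the ratio of pooled levels was 52.9 with an interval of 26.3 to 124. None of its 50-base stretches occurred in the annotated transcripts of another gene, those of Acta1 included.

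Tnnt2 encodes cardiac troponin T, an isoform of the heart and of immature skeletal muscle (chromosome 1, 135836354 to 135852260, forward strand). It had 0 counts in WT replicates 1 and 3 and 10 counts, 0.274 CPM, in WT replicate 2. In KO it was at 6.40, 5.21 and 7.99 CPM. The log2 fold change was 5.95 (SE 0.81, edgeR adjusted p = 0.0067), and 10.14 without WT replicate 2, the library that held all of the WT counts. Without WT replicate 3 the log2 fold change was 5.36. The ratio of pooled levels was 63.2, with an interval of 33.9 to 133. With KO replicates 1 and 2 left out the call was lost (log2 fold change 6.20, edgeR adjusted p = 0.053).

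Myl4 encodes the essential myosin light chain of the atrium and of embryonic muscle (chromosome 11, 104550663 to 104595753, forward strand). It was at 0.155, 0.274 and 0.0587 CPM in WT and at 3.04, 3.42 and 4.83 CPM in KO, with no overlap (log2 fold change 4.47, SE 0.53, edgeR adjusted p = 0.0033). The ratio of pooled levels was 22.4, with an interval of 13.4 to 40.1. Leaving out WT replicate 2 gave a log2 fold change of 5.12, and leaving out WT replicate 3 gave 4.06. Myh3, Myh8, Actc1 and Myl4 kept their calls in all 18 alternatives, and Tnnt2 in 17 of 18.

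The promoter windows of these 5 genes and, for comparison, of the myogenic factor Myog and the adult fast myosin Myh4 are shown because the genes differ in when muscle uses them. Each runs from 250 bases before to 50 bases after a RefSeq transcription start (GRCm38.p6). Capitals mark each CANNTG, the E-box bound by factors of the MyoD family, which reads as a match on both strands at once.
Myh3, chr11:67078050-67078349, forward strand: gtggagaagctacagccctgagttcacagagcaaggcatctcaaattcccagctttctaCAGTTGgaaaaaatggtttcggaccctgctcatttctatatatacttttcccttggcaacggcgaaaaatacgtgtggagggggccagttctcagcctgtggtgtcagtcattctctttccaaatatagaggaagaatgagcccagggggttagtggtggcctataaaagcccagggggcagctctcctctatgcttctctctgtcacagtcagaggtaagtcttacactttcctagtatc
Myh8, chr11:67276874-67277173, forward strand: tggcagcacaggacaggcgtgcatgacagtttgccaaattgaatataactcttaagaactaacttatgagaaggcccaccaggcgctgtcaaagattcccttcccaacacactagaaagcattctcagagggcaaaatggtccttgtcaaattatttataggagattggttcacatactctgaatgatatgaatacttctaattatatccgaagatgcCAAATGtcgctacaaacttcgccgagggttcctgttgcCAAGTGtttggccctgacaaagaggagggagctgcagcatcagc
Actc1, chr2:114052826-114053125, reverse strand: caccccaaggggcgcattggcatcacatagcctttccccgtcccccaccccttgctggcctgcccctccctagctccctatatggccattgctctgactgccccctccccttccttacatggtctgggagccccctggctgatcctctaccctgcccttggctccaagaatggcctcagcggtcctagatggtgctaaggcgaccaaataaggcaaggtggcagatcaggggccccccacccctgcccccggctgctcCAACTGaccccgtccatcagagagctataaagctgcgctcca
Tnnt2, chr1:135836084-135836383, forward strand: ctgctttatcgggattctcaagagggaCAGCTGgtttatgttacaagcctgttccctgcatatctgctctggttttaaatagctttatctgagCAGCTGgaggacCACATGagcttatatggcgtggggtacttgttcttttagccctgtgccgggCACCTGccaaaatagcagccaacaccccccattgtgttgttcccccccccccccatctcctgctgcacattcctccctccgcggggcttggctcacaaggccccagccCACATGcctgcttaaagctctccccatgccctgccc
Myl4, chr11:104550413-104550712, forward strand: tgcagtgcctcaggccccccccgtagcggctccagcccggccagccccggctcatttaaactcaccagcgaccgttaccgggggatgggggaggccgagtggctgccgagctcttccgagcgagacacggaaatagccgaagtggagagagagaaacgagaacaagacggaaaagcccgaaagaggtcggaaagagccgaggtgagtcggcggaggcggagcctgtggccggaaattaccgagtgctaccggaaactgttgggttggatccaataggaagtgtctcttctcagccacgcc
Myog, chr1:134289754-134290053, forward strand: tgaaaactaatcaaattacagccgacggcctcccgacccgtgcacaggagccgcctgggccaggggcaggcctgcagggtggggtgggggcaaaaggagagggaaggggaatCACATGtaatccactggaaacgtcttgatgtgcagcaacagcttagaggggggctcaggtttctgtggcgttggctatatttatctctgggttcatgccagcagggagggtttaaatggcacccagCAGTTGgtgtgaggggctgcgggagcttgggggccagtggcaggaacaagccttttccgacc
Myh4, chr11:67237562-67237861, forward strand: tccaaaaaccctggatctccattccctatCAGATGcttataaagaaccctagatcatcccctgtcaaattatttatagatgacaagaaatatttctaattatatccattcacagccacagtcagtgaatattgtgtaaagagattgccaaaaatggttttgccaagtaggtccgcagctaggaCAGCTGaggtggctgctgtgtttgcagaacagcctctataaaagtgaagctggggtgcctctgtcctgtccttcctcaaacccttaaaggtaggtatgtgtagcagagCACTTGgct
Tnnt2 has 2 windows in the RefSeq table, of which the upstream one is shown. It held 5 E-boxes, and the window of Myl4 held none. A window was found for 35 of the 40 members, 41 windows in all, since some genes have several starts whose windows can overlap. CANNTG occurred in 85.4% of the member windows and in 72.3% of all 32851 windows. CAGCTG, a form of the E-box preferred by MyoD and myogenin and a subset of the CANNTG matches, occurred in 48.8% of member windows and 16.3% of all. By class, CAGCTG was in 1 of 6 embryonic windows, 5 of 9 fast, 5 of 10 slow, 9 of 13 shared and 0 of 3 windows of myogenic factors. The MEF2 element, bound by partners of the MyoD family, was in 5 of 41 member windows and 3.19% of all. The CArG box, bound by serum response factor, was in 4 of 41 and 1.63% of all, Actc1 and Myh4 included. These are matches of letters in a short window and say nothing about binding in these cells.

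Of the 4 myogenic factors, myogenin rose, Pax7 and Myod1 had no call and Myf5 was not tested. Myog, which drives the terminal differentiation of myoblasts (chromosome 1, 134289989 to 134292548), was at 0.504, 0.493 and 0.323 CPM in WT and 1.92, 3.28 and 4.25 CPM in KO. The log2 fold change was 2.83 (SE 0.44, edgeR adjusted p = 0.010), and it was called in each of the 6 fits without a single library.

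The factors that act earlier were at a few counts. Pax7, the factor of satellite cells, had 11, 2 and 8 counts in WT and 10, 15 and 25 in KO, with a log2 fold change of 2.19 (SE 0.73, edgeR adjusted p = 0.11). It was called with no count filter (edgeR adjusted p = 0.036) and with limma-voom (log2 fold change 3.12, adjusted p = 0.0045). Myf5, of activated satellite cells and early myoblasts, had 2, 0 and 1 counts in WT and 4, 3 and 10 in KO and was not tested. Both were above WT in every KO library on the CPM scale. Myod1, the factor that commits cells to muscle, had 18, 17 and 14 counts in WT and 10, 3 and 18 in KO. Its levels overlapped, at 0.411 to 0.698 CPM and 0.214 to 1.16 CPM, and its log2 fold change of 0.29 (SE 0.62, edgeR adjusted p = 0.82) was -0.29 with library sizes alone, -0.38 with limma-voom and -0.42 without KO replicate 3.

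Adult fast fibre genes rose by less, and 9 of 12 were called. The essential light chain gene Myl1 had the largest change, at 0.465, 0.822 and 0.558 CPM in WT and 7.14, 6.56 and 10.4 CPM in KO (log2 fold change 3.68, SE 0.34, edgeR adjusted p = 0.0013). The regulatory light chain gene Mylpf was at 0.737, 0.740 and 0.704 CPM in WT and 3.78, 4.85 and 5.67 CPM in KO (log2 fold change 2.70, SE 0.31, edgeR adjusted p = 0.0029). Both kept their calls in all 18 alternatives. The groups did not overlap in either gene.

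Adult fast myosins did not move alike. Myh4, the myosin of the fastest fibres, was the main myosin heavy chain in WT, at 2.95, 3.32 and 2.35 CPM, and was at 5.28, 6.35 and 10.3 CPM in KO (log2 fold change 1.34, SE 0.30, edgeR adjusted p = 0.035). Leaving out any WT library, or KO replicate 2, ended the call (edgeR adjusted p of up to 0.10), as did library sizes alone (log2 fold change 0.72, edgeR adjusted p = 0.087). Myh1, of fast IIx fibres, was at 0.465, 0.795 and 0.382 CPM in WT and 6.08, 3.92 and 2.64 CPM in KO (log2 fold change 2.93, SE 0.45, edgeR adjusted p = 0.010). Its call was lost with KO replicates 1 and 2 left out (edgeR adjusted p = 0.091). Myh2, of fast IIa fibres, had 17, 18 and 6 counts in WT, 41 and 36 counts in KO replicates 1 and 2 and 1 count in KO replicate 3. Its log2 fold change was 1.86 (SE 0.92, edgeR adjusted p = 0.26), 2.44 without KO replicate 3, where it was called, as it was with no count filter and with limma-voom, and -2.73 (edgeR adjusted p = 0.29) in KO replicate 3 alone. These genes lie side by side on chromosome 11 and share sequence, with 30.5% of the 50-base stretches of Myh1, 24.6% of Myh2 and 18.9% of Myh4 found in other genes, so counts among them are uncertain.

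The fast troponins Tnni2 and Tnnt3 were detected in WT libraries at 73 counts or more. Tnni2, fast troponin I, was at 7.87, 5.56 and 5.90 CPM in WT and 14.6, 11.1 and 12.1 CPM in KO (log2 fold change 0.97, SE 0.21, edgeR adjusted p = 0.029). The call ended when WT replicate 2 or 3, or KO replicate 1 or 2, was left out (edgeR adjusted p of up to 0.12), and with library sizes alone (log2 fold change 0.37, edgeR adjusted p = 0.25). Tnnt3, fast troponin T, was at 2.83, 2.38 and 2.26 CPM in WT and 6.93, 7.06 and 12.8 CPM in KO (log2 fold change 1.84, SE 0.29, edgeR adjusted p = 0.011), with an edgeR adjusted p of 0.054 without WT replicate 2. Tnnc2, fast troponin C, had 0 counts in every WT library and 2, 1 and 1 in KO. Of its exonic length, 74.0% lies over Ube2c on the opposite strand, and no fold is given.

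The remaining fast fibre genes were low. Actn3, the alpha-actinin of fast fibres, was at 0.356 to 0.969 CPM in WT and 2.56 to 3.61 CPM in KO. Atp2a1, the calcium pump of the sarcoplasmic reticulum, was at 1.51 to 1.79 CPM in WT and 4.10 to 4.49 CPM in KO. Casq1, which stores calcium there, was at 0.0776 to 0.301 CPM in WT and 0.903 to 1.43 CPM in KO. All 3 were called higher, with log2 fold changes of 2.19, 1.34 and 2.30. Their calls were fragile: leaving out WT replicate 2 or 3, or KO replicate 1 or 2, ended that of Actn3 (edgeR adjusted p of up to 0.085). Leaving out any library other than KO replicate 3 ended those of Atp2a1 and Casq1 (up to 0.11 and 0.18), and Atp2a1 had an edgeR adjusted p of 0.092 with library sizes alone. Rabep2 on the opposite strand covers 21.9% of the exonic length of Atp2a1. Mybpc2, fast myosin binding protein C, had 8, 10 and 7 counts in WT and 10, 5 and 5 in KO and was not tested.

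Slow fibre genes split. Tnni1, slow troponin I, which developing muscle also makes in all fibres, was at 0.116, 0.0548 and 0.0880 CPM in WT and 2.45, 1.85 and 3.29 CPM in KO. Its log2 fold change of 4.83 (SE 0.52, edgeR adjusted p = 0.0022), on 8 pooled counts in WT and 123 in KO, lay within the range of the embryonic isoforms, and the call held in all 18 alternatives. Mybpc1, slow myosin binding protein C, was at 0.620, 0.548 and 0.470 CPM in WT and 2.29, 2.07 and 2.84 CPM in KO (log2 fold change 2.13, SE 0.37, edgeR adjusted p = 0.015). Its edgeR adjusted p reached 0.074 when WT replicate 2 or 3, or KO replicate 1 or 2, was left out.

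The other 5 slow genes had no call or too few counts. Tnnt1, slow troponin T, was at 1.67, 2.52 and 3.17 CPM in WT and 3.25, 4.07 and 4.25 CPM in KO (log2 fold change 0.64, SE 0.31, edgeR adjusted p = 0.26), and its log2 fold change was 0.02 with library sizes alone. Tnnc1, the troponin C of slow and cardiac muscle, was at 0.0776, 0.384 and 0.352 CPM in WT and 0.906, 2.07 and 0.967 CPM in KO (log2 fold change 2.20, SE 0.63, edgeR adjusted p = 0.073). It was called with no count filter (edgeR adjusted p = 0.015), with DESeq2 (adjusted p = 0.019) and with limma-voom (adjusted p = 0.0095). Myh7, the slow myosin heavy chain, had 3, 8 and 0 counts in WT and 3, 0 and 2 in KO. Its light chain partners were as low, with Myl2 at 10, 5 and 11 counts in WT and 11, 5 and 3 in KO, and Myl3 at 4, 2 and 3 counts in WT and 1, 0 and 0 in KO. A difference in these 3 was not detectable at this depth.

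Genes that fibres of all types use rose in 7 of 12 cases. Ttn encodes titin, the spring of the sarcomere, and held the most counts of the set. It was at 11.3, 12.6 and 8.42 CPM in WT and 41.7, 49.1 and 72.7 CPM in KO (log2 fold change 2.34, SE 0.24, edgeR adjusted p = 0.0019). Acta1, the actin of adult skeletal muscle, was at 5.16, 3.51 and 3.29 CPM in WT and 20.6, 23.5 and 29.4 CPM in KO (log2 fold change 2.62, SE 0.23, edgeR adjusted p = 0.0012). Both were highest in KO replicate 3.

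Desmin and tropomyosin moved by like amounts. Des, the intermediate filament of muscle, which smooth muscle and pericytes also make, was at 2.60, 2.08 and 2.08 CPM in WT and 12.2, 16.4 and 14.8 CPM in KO (log2 fold change 2.68, SE 0.21, edgeR adjusted p = 0.00079). Tpm2, beta-tropomyosin, was at 4.69, 2.47 and 3.73 CPM in WT and 19.7, 20.9 and 21.2 CPM in KO (log2 fold change 2.51, SE 0.24, edgeR adjusted p = 0.0015). The calls of Ttn, Acta1, Des and Tpm2 held in all 18 alternatives.

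The other 3 shared genes that rose were Actn2, Neb and Klhl41. Actn2, the alpha-actinin of all fibres, was at 0.194 to 0.219 CPM in WT and 2.61, 3.14 and 1.22 CPM in KO (log2 fold change 3.46, SE 0.50, edgeR adjusted p = 0.0084), with an edgeR adjusted p of 0.11 in KO replicate 3 alone. Neb, the giant ruler of the thin filament, was at 1.14 to 2.40 CPM in WT and 6.77, 7.35 and 15.8 CPM in KO (log2 fold change 2.44), and its edgeR adjusted p was 0.054 without WT replicate 2. Klhl41, which stabilises nebulin, was at 0.247 to 0.323 CPM in WT and 1.12 to 2.26 CPM in KO (log2 fold change 2.40) and kept its call without KO replicate 3 and in no other fit without a single library (edgeR adjusted p of up to 0.12).

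The other 5 shared genes had no call or were not tested. Ckm, muscle creatine kinase, was at 1.05, 0.356 and 0.880 CPM in WT and 1.12, 0.571 and 3.87 CPM in KO (log2 fold change 1.29, SE 0.71, edgeR adjusted p = 0.31). Ryr1, the calcium release channel, was at 4.89, 2.71 and 1.91 CPM in WT and 3.25, 4.92 and 5.61 CPM in KO (log2 fold change 0.54, SE 0.39, edgeR adjusted p = 0.44), and -0.09 with library sizes alone. Groups overlapped in both. Chrna1, the acetylcholine receptor subunit, had 4, 3 and 18 counts in WT and 9, 14 and 16 in KO (log2 fold change 1.67, edgeR adjusted p = 0.20), and was called with limma-voom (adjusted p = 0.0076). Mb, myoglobin, had 7, 3 and 2 counts in WT and 13, 11 and 7 in KO. Cav3, the caveolin of muscle, had 1 count in all WT libraries together and 4, 0 and 5 in KO. Neither Mb nor Cav3 was tested.

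**Figure D2:**
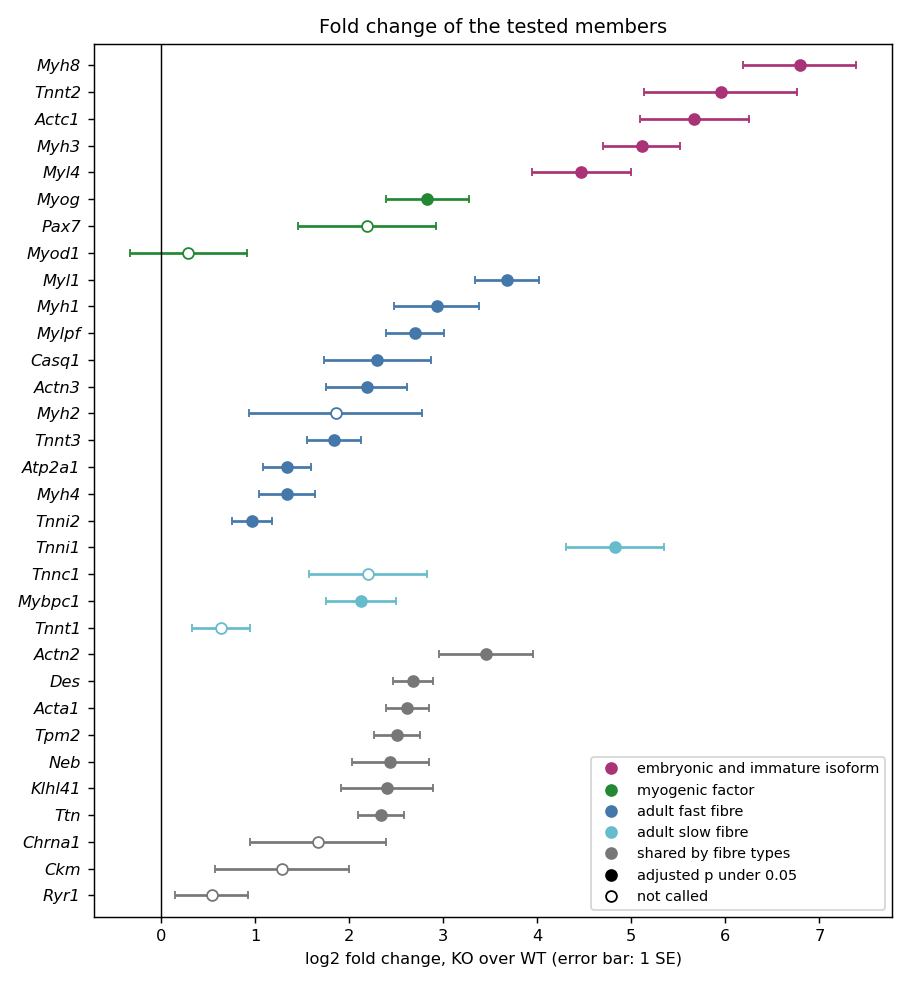
Log2 fold change, KO over WT, of the 32 tested members with 1 SE, coloured by class and sorted within it; filled symbols have an edgeR adjusted p under 0.05. The embryonic isoforms lie between 4.47 and 6.79 and Tnni1 at 4.83, while the other called members lie between 0.97 and 3.68.

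Over all members of a class, with no count filter, the median log2 fold change was 5.62 in the 5 embryonic isoforms, 2.45 in the 4 myogenic factors, 1.99 in the 12 fast genes (1.83 without Tnnc2), 0.59 in the 7 slow genes and 2.37 in the 12 shared genes. The median over all 32474 rows was -0.06. With library sizes alone, which moves the median of all tested genes to -0.60, the class medians of embryonic, fast, slow and shared genes were 5.08, 1.41, 0.02 and 1.82. The differences between classes were not tested, since the genes were grouped with results known.

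Shares of isoforms within a protein family do not depend on the scaling of the libraries. Myh3 and Myh8 together made up 8.49%, 11.1% and 4.79% of the myosin heavy chain signal per transcript length in WT and 52.2%, 60.3% and 56.0% in KO. The family is taken as Myh1, Myh2, Myh3, Myh4, Myh7 and Myh8. Myh4 held the largest share in WT, at 64.6%, 61.4% and 77.1%, and 18.5%, 19.8% and 34.5% in KO, where its level was higher. In KO, Myh3 held the largest share in each library, at 37.0%, 39.6% and 42.7%. The groups did not overlap in the share of Myh3 or of Myh4.

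Shares of developmental isoforms in the thin filament families were also higher in every KO library than in any WT library. Actc1 made up 0.733%, 2.25% and 3.39% of the sarcomeric actin signal per length in WT and 12.3%, 12.1% and 19.3% in KO, the rest being Acta1. The WT counts of Actc1 were 1, 3 and 4, where 3 counts are 2.24% to 2.59% of the counts of both genes. Tnnt2 made up 34.7%, 28.3% and 28.4% of the troponin T signal per length in KO and 4.52% in WT replicate 2. It had 0 of 116 and 0 of 185 troponin T counts in WT replicates 1 and 3, where 3 counts of the total would be a share of 2.59% and 1.62% and the exact 95% intervals reach 3.13% and 1.97%. Tnni1, classed here among the slow fibre genes, was set against Tnni2. It made up 0.977%, 0.654% and 0.987% of their signal per length in WT and 10.1%, 10.0% and 15.4% in KO. These WT shares rest on 3, 2 and 3 counts of Tnni1, where 3 counts are 1.46% to 1.47% of the counts of both genes.

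The light chain family was the one in which counting intervals overlapped between groups. Myl4 made up 18.1%, 21.2% and 7.32% of the signal per length of Myl1, Myl3 and Myl4 in WT and 26.5%, 30.8% and 28.3% in KO. The WT shares rest on 4, 10 and 2 counts of Myl4, out of 20, 42 and 24 counts of the family. In WT replicate 3, 3 counts would be a share of 12.5%. The exact 95% intervals of the WT count shares, such as 12.1% to 39.5% in WT replicate 2, overlap those of the KO libraries, such as 23.3% to 36.7% in KO replicate 1. Intervals cover counting error alone, and amplified reads without molecular identifiers are not independent molecules. No p is given for these shares, since 3 against 3 libraries allow an exact two-sided permutation p of 0.1 at the lowest.

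**Figure D3:**
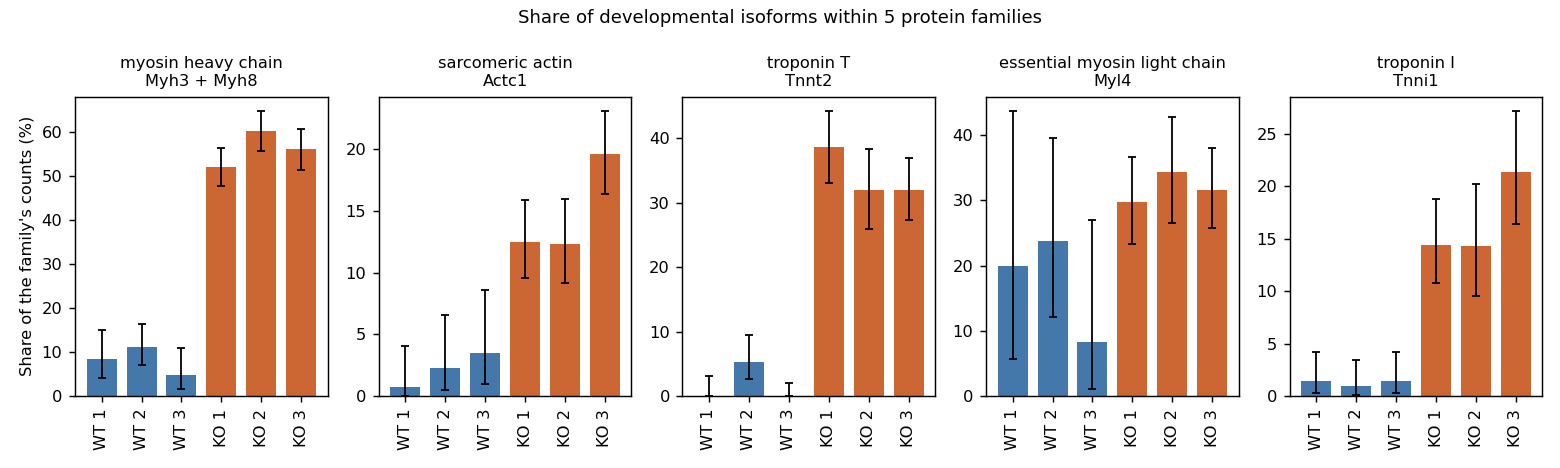
Share of each family's counts taken by the isoforms named above each panel, per library, in percent; bars are the share and lines its exact 95% binomial interval, with WT in blue and KO in orange. KO bars stand above WT bars in all 5 families, and the intervals of the light chain panel overlap between groups.

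Per transcript length, the order of members differed between groups. In WT the highest were Tnni2 at 8.39 CPM per kb, Acta1 at 2.76, Tnnt3 at 2.47 and Tnnt1 at 2.39 CPM per kb. In KO they were Acta1 at 16.9, Tnni2 at 16.4, Myl1 at 10.0 and Tpm2 at 9.82 CPM per kb. Tnnt2 was in place 27 of 40 in WT, at 0.0761 CPM per kb, and in place 7 in KO, at 5.44 CPM per kb. Lengths are those of the principal GENCODE transcript, and neighbours in these orders lie close to each other.

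Some muscle genes outside the set followed. Of all tested genes, 4.39% were called higher and 2.25% lower. Of 37 other sarcomere and Z-disc genes 22 were tested, 7 rose and none fell, with a median log2 fold change of 0.82. Myom2, an M-band protein of fast fibres, was at 0, 0.137 and 0.0880 CPM in WT and 2.19, 2.85 and 3.61 CPM in KO (log2 fold change 5.07, SE 0.66, edgeR adjusted p = 0.0055). Myom1, its partner, and Obsl1, a cytoskeletal linker, rose by 3.29 and 3.82 on the log2 scale. Ldb3, Tcap and Flnc, the last a filamin of the Z-disc, were also among those that rose. Of the 6 fits without a single library, Myom2 was called in 6, Myom1 in 4, Obsl1 in 3, Flnc in 2, and Ldb3 and Tcap in 1 each, and Flnc had an edgeR adjusted p of 0.15 with library sizes alone. Of 32 genes of excitation and muscle metabolism, 17 were tested, with 1 call in each direction, near the shares over all tested genes. Pfkm rose (log2 fold change 0.82) and Fabp3, a fatty acid binding protein, fell by 1.35. Both were called in 2 of the 6 fits without a single library, and the log2 fold change of Pfkm was 0.21 with library sizes alone (edgeR adjusted p = 0.46). Of 17 fusion and neuromuscular genes, 2 of which are older symbols, 5 were tested and none called. The muscle fusion genes Mymk and Mymx had at most 19 and 5 counts in a library.

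Several lists of markers for cells other than macrophages also differed between the groups, and their part in the results above was not tested. Beside the counts of calls in these lists stand the shares over all tested genes, 4.39% higher and 2.25% lower. In bulk RNA, more cells of a type and more RNA per cell cannot be told apart. Of 12 fibroblast markers 10 were tested, 6 rose and none fell, and their summed level was 14.1 to 47.3 CPM in WT and 159 to 207 CPM in KO. The collagen genes Col1a1, Col1a2 and Col3a1 made up most of these sums. Pdgfra, Dcn and Thy1 overlapped between groups. Pi16 had no call but was lower in every KO library, at 1.64 to 2.33 CPM in WT and 0.533 to 1.16 CPM in KO. Col1a1, a chain of collagen I, had a mean of 7.61 ± 5.64 CPM over the 3 WT libraries against 73.1 ± 14.8 CPM over the 3 KO libraries (± SD), and Postn, periostin, rose by 3.73 on the log2 scale. Both the fibroblast sum and the sum over the 40 muscle genes were higher in every KO library than in any WT library. Within the KO group the fibroblast sum was lowest in replicate 3, at 159 CPM, where the muscle sum was highest, at 288 CPM. This order within a group was not tested. Of 15 satellite cell and myoblast markers 7 were tested and 1 rose, Peg3, with summed levels of 207 to 303 CPM in WT and 296 to 408 CPM in KO. Most of these sums came from Sdc4 and Dag1, which many cell types express, and the other 13 markers summed to 2.82 to 7.14 CPM in WT and 15.5 to 21.4 CPM in KO. Sdc4 and Dag1 were set aside after their values were seen. Of the other 13, Peg3 alone was at 0.521 to 2.71 CPM in WT and 6.13 to 12.9 CPM in KO, a large part of the KO sums. Calcr, a receptor of quiescent satellite cells, had 0 counts in all 6 libraries, and Cdh15 (M-cadherin) had 5 to 19.

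Of 12 endothelial markers, all tested, 4 fell and none rose, Cdh5 (VE-cadherin) and Pecam1 among them, and their sum was 71.5 to 125 CPM in WT and 27.6 to 51.9 CPM in KO. Of 12 smooth muscle and pericyte markers 9 were tested and 2 rose, Synpo2 and Acta2, with sums of 87.1 to 157 and 73.6 to 170 CPM. Myh11, the smooth muscle myosin, had a mean of 3.94 ± 0.753 CPM against 3.88 ± 3.45 CPM. Of 12 neutrophil markers 5 were tested, Mmp9 rose and Mmp8 fell, with Mmp9 at 268 and 162 CPM in KO replicates 1 and 2 and within the WT range at 18.9 CPM in replicate 3. Ly6g was at 0 in all libraries, and the sums were 67.1 to 95.2 and 92.3 to 311 CPM. Of 12 T and NK cell markers 2 were tested, Cd4 rose and Cd2 had no call (log2 fold change -1.79, edgeR adjusted p = 0.22). The 12 summed to 3.64 to 8.85 CPM in WT and 48.8 to 65.2 CPM in KO. Cd4 made up most of the KO sums, at 46.5 to 64.5 CPM. In WT Cd4 was at 1.67 to 3.81 CPM and Cd2 at 1.29 to 4.63 CPM. Cd3e had at most 1 count. None of 7 red cell genes was tested, at sums of up to 3.03 CPM. Of the 10 macrophage markers Aif1 and Csf1r rose and Cd68 fell. Of the named markers, Col1a1, Postn, Cd4 and Aif1 were called in each of the 6 fits without a single library. Cdh5 was called in 4 of these, Peg3, Mmp8 and Csf1r in 3, Pecam1, Synpo2 and Acta2 in 2, and Mmp9 and Cd68 in 1. With library sizes alone Acta2 and Csf1r had edgeR adjusted p of 0.19 and 0.10.

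**Figure D4:**
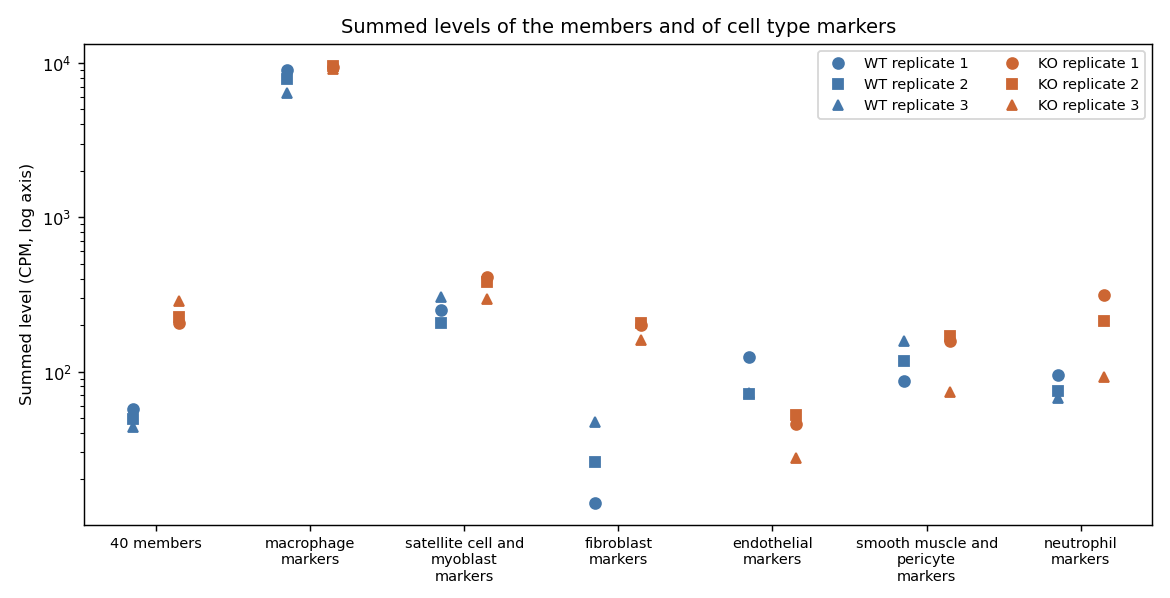
Summed level of the 40 members and of 6 marker lists in each library, in CPM on a log axis, with WT in blue, KO in orange and symbols for replicates. The members, the fibroblast markers and the macrophage markers are higher in every KO library than in any WT library. The endothelial markers are lower in every KO library. The macrophage markers lie at 6430 to 8963 CPM in WT and 9178 to 9576 CPM in KO.

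The calls were not equally firm. Of the 24 members that rose, 15 were called in each of the 6 fits without a single library: all 5 embryonic isoforms, Myog, Myh1, Myl1, Mylpf, Tnni1, Acta1, Actn2, Des, Tpm2 and Ttn. The number of members called higher was 15 without WT replicate 2, the lowest of the leave-outs, and 25 without KO replicate 3, the highest. Over all 18 alternatives 11 of the 24 were called each time, namely Myh3, Myh8, Actc1, Myl4, Myl1, Mylpf, Tnni1, Acta1, Des, Tpm2 and Ttn. With KO replicates 1 and 2 left out, Tnnt2, Myh1, Myh4, Tnni2, Actn3, Atp2a1, Casq1, Mybpc1, Actn2 and Klhl41 lost their calls.

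**Figure D5:**
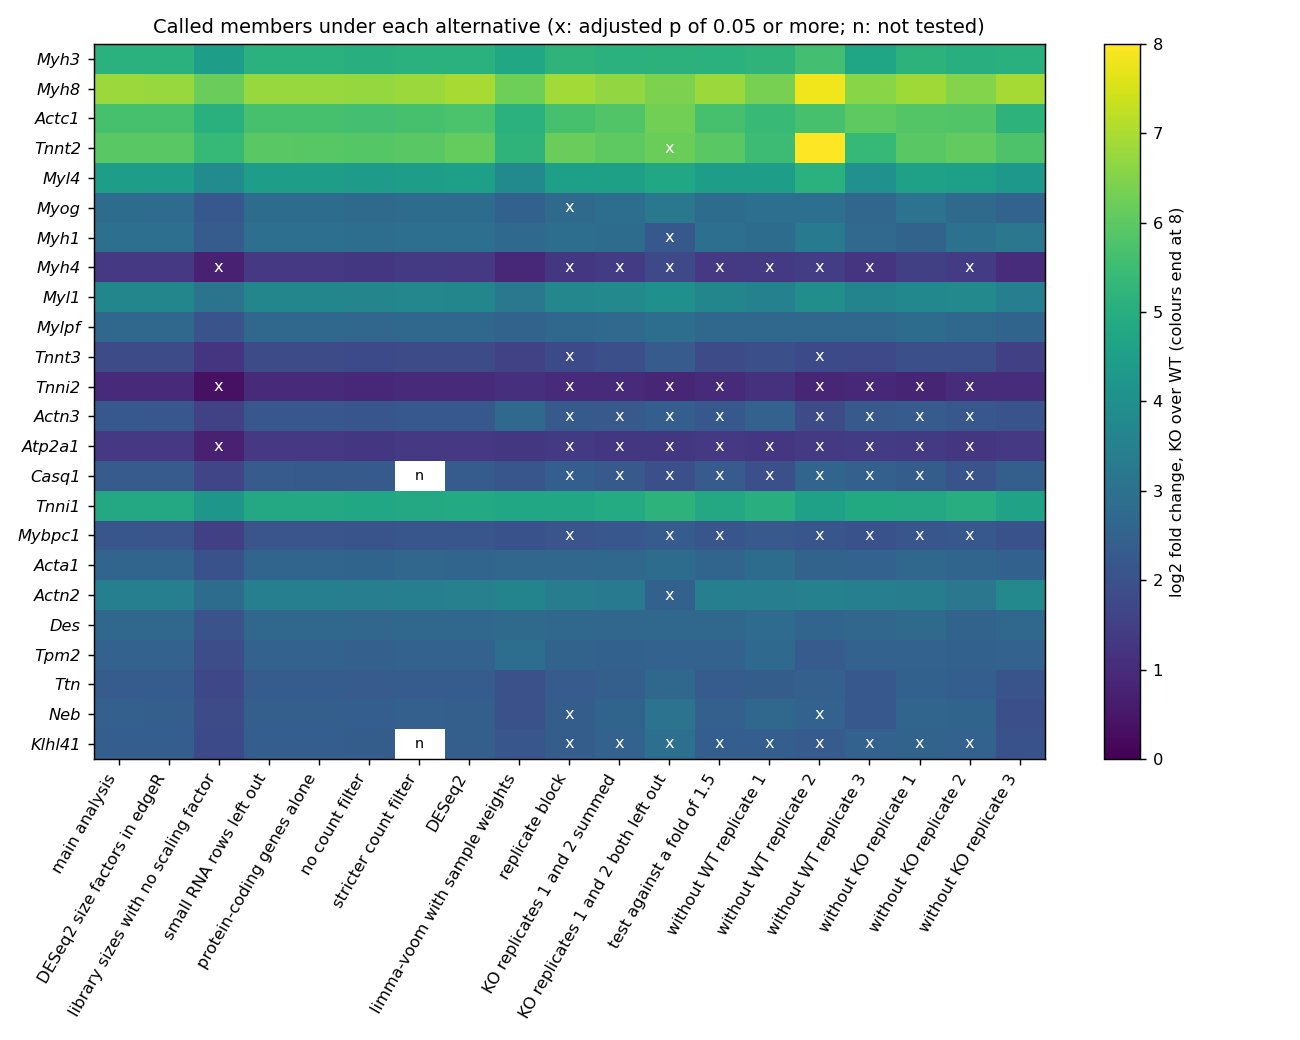
Log2 fold change, KO over WT, of the 24 called members (rows) in the main analysis and under 18 alternatives (columns); a cross marks an adjusted p of 0.05 or more and n a gene that was not tested. Rows of the embryonic isoforms hold a single cross, for Tnnt2 with KO replicates 1 and 2 left out, while Atp2a1, Tnni2, Casq1, Klhl41 and Myh4 hold many.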

How the data were processed

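RNA sequencing counts were analysed from 6 libraries of macrophages sorted from calf muscle, 3 labelled WT and 3 labelled pfkfb3-ko, numbered in the order of the sample records. The authors deposited raw read counts for each gene, in whole numbers, in a table of 55353 rows. The submitters' processing notes name HISAT2, featureCounts, Trim Galore, FastQC and DESeq, and GRCm38 as the build. Neither tool versions nor annotation nor strand setting were given there, so genes overlapping on opposite strands have uncertain counts. In 26 rows a spreadsheet had turned the symbol into a date; they held 0.0913% to 0.163% of a library and were left out.

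Counts were tested with edgeR 4.0.16 in R 4.3.3 (filterByExpr, TMM, glmQLFit and glmQLFTest, two-sided, Benjamini-Hochberg over 14987 genes); SE is the log2 fold change divided by the square root of F. CPM uses the TMM-scaled library size. Alternatives were other scalings and filters, DESeq2 1.42.0, limma-voom 3.58.1 with sample weights, a title-ending block, a fold threshold of 1.5, and libraries left out or summed. Positions, overlaps, lengths and shared 50-base stretches come from GENCODE M21 (GRCm38), promoters from RefSeq. The 40 members, their classes and the 11 gene lists were chosen with earlier results of these data known. All members are accounted for; from other lists called genes and defining markers are named. The values of 1 listed gene are not reported here.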

Additional observations from a re-analysis of the deposited data

How the results depend on the processing

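The count of members called higher (24) stayed within 1.5 times under DESeq2 size factors, library sizes alone, small RNA rows or non-coding genes left out, both other count filters, DESeq2, limma-voom, the test against a fold of 1.5 and the sum of KO replicates 1 and 2. It was 14 with KO replicates 1 and 2 left out, 14 with the replicate block, and 15 to 25 without a single library; no member was called lower in any alternative. In the 430 refits of called members no direction reversed and 69 lost the call. Reversals were seen in uncalled members: Myod1 (-0.29 with library sizes alone, -0.38 with limma-voom, -0.42 without KO replicate 3, the lowest of a range up to 0.65 when single libraries were left out), Myh2 (-2.73 with KO replicates 1 and 2 left out) and Ryr1 (-0.09 with library sizes alone); the cause was not tested. Over all genes, 658 were called higher and 337 lower. These counts were 300 and 6008 with library sizes alone, 1034 and 923 with no count filter, 1090 and 776 with DESeq2, 2601 and 2249 with limma-voom, 220 and 62 with KO replicates 1 and 2 summed, 101 and 48 with both left out, and 149 and 31 against a fold of 1.5. They were 154 to 963 and 35 to 689 without a single library. The block on title endings gave 206 and 61; libraries with the same ending did not deviate together (r of 0.0206, -0.0623 and -0.0920), so the endings are not taken to pair samples. A floor of 3 counts was worth 0.160 to 0.214 CPM in KO libraries, which limits what can be said of Myf5, Tnnc2, Myh7, Myl2, Myl3, Mb, Cav3 and Mybpc2.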

Other observations

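Tnni2 was the member with the highest level per length in WT, at 607 pooled counts. Tnni2 and Tnnt3 flank Lsp1, a leukocyte gene on chromosome 7 (142460809 to 142494867, GRCm38), at distances of 16398 and 3968 bases, all on the forward strand. Lsp1 was at 421, 246 and 217 CPM in WT and 191, 173 and 144 CPM in KO (log2 fold change -0.80, edgeR adjusted p = 0.088), while Tnni2 and Tnnt3 were called higher in KO.

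KO replicate 3 differed from KO replicates 1 and 2 in single fibre genes. It had 1 count of Myh2 against 41 and 36, 60 counts of Ckm against 21 and 8, 19 of Actn2 against 49 and 44, and 111 of Actc1 against 55 and 46. No test was made within a group.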
